A study of Homo sapiens with 6 samples.

Results

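The 10 keratin genes that are used to sort urothelial cells and bladder tumours into basal and luminal kinds were read out of the gene counts of the SHMT2 knockdown in HT-1376 cells. They were listed by name and not picked by a measured value, although earlier results of these data were known at the choice. They were matched to the 63241 listed genes through the symbols of GENCODE release 44, where all 10 were found. They form 3 classes, which are basal or squamous (KRT5, KRT6A, KRT14 and KRT17), simple epithelial (KRT7, KRT8, KRT18 and KRT19) and differentiation (KRT13 and KRT20). HT-1376 cells, an established line that came from a human bladder carcinoma, received the siRNA chosen against SHMT2 (siSHMT2) or a non-targeting control siRNA (siNC), were collected 24 h later and gave 3 RNA-seq libraries per group. Both groups carry a transfected siRNA, no untransfected group was sequenced here, and a single siRNA sequence stands for the knockdown. The labels call the siNC cells WT and the siSHMT2 cells SHMT2 knockdown. The study describes the libraries as biological replicates, the labels do not say whether they came from separate cultures, and p-values measure the spread between these libraries.

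Keratins are the intermediate filament proteins of epithelia and assemble as obligate pairs of a type I and a type II chain. In stratified epithelia KRT5 (type II) pairs with KRT14 (type I) in the basal layer, and in simple epithelia KRT8 (type II) pairs with KRT18 (type I). In the urothelium, basal cells are known for KRT5 with or without KRT14, intermediate cells for KRT13, and the surface umbrella cells for KRT20, while KRT7, KRT8, KRT18 and KRT19 are present through most layers. Bladder carcinomas of the basal or squamous kind typically carry KRT5, KRT6A and KRT14, and those of the luminal kind KRT20 together with uroplakins and the transcription factors GATA3, FOXA1 and PPARG.

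The type II members KRT5, KRT6A, KRT7 and KRT8 lie on chromosome 12 and the type I members KRT14, KRT17, KRT19, KRT13 and KRT20 on chromosome 17, with KRT18 as the type I gene placed beside KRT8 on chromosome 12. Positions are given in GRCh38; KRT7 and KRT18 are on the plus strand and the others on the minus strand.

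The libraries summed to between 533689 and 890574 counts, and siSHMT2 replicate 1 was the shallowest. These sums are far below the number of reads described for the libraries, and how reads were counted is not given in the sources used here. The kit keeps the strand of the RNA, and a counting set to the opposite strand, which was not tested, would leave most reads of a gene uncounted. Every level, rank, share and count of 0 given here rests on these counts and would change with that setting. Values per library are given in the order of replicates 1 to 3. SHMT2, the silenced mitochondrial serine hydroxymethyltransferase, had 28, 15 and 20 counts in siNC against 9, 2 and 5 in siSHMT2, and the groups did not overlap. edgeR put its log2 fold change at -1.78 (SE 0.48), and the 95% interval of the fold of siSHMT2 over siNC was 0.149 to 0.568. The edgeR quasi-likelihood test gave SHMT2 a p of 0.00056 unadjusted and 0.93 adjusted (Benjamini-Hochberg over 7207 tested genes). The paper reports less SHMT2 RNA by RT-qPCR, less protein by Western blot and a significant fall of SHMT2 FPKM in the siSHMT2 samples. On the principal components of log2 CPM (counts scaled to library size with TMM) siSHMT2 replicate 1 stood apart on the first, with a score of 33.7 against -12.5 to -1.02 in the other libraries. On the second siNC replicate 2 stood apart, with -28.3 against -1.13 to 15.3, and keratin values without either library are given where they matter.

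Levels are given as FPKM, which divides the count by the gene length listed with the data and by the library's summed counts, so that genes can be set against each other. In bulk RNA fewer cells with a transcript and less of it per cell cannot be told apart. KRT8 (ENSG00000170421, chr12:52897187-52949954) was the most abundant member and ranked 6 among all protein-coding genes by mean FPKM. Its FPKM was 1014, 1024 and 1129.5 in siNC and 1073, 1043 and 1072 in siSHMT2. The siSHMT2 values all lay inside the range of the siNC values. KRT18 (ENSG00000111057, chr12:52948871-52952906), the type I partner of KRT8, followed at rank 16, with an FPKM of 616, 573 and 620.1 in siNC and of 617, 577 and 515 in siSHMT2. Its groups overlapped, and siSHMT2 replicate 3 was the lowest library. The ratio of KRT8 to KRT18 in FPKM was 1.75 ± 0.092 in siNC against 1.88 ± 0.18 in siSHMT2 (SD, n = 3 each).

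KRT7 (ENSG00000135480, chr12:52232520-52252186), a type II keratin of simple and transitional epithelia, had an FPKM of 296, 288 and 354 in siNC and of 353, 325 and 287 in siSHMT2. KRT19 (ENSG00000171345, chr17:41523617-41528308), the smallest of the keratins and one without a tail domain, had an FPKM of 172, 140.5 and 153 in siNC and of 175, 130.0 and 118 in siSHMT2. In KRT19, siSHMT2 replicate 1 was the highest of the 6 libraries and siSHMT2 replicate 3 the lowest, so that the siSHMT2 libraries enclosed those of siNC.

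Among the basal or squamous keratins KRT14 (ENSG00000186847, chr17:41582279-41586895) stood far above the other 3. Its FPKM was 431, 372 and 502 in siNC and 439, 358 and 414 in siSHMT2, which placed it at rank 35 among protein-coding genes, between KRT18 and KRT7. KRT5 (ENSG00000186081, chr12:52514575-52520530), the type II partner of KRT14 in basal cells, had an FPKM of 21.3, 15.6 and 26.1 in siNC and of 20.9, 13.6 and 24.7 in siSHMT2. The level of KRT14 was therefore 16.8 to 26.3 times that of KRT5, in every library, and KRT14 made up 78.7% to 83.1% of the summed FPKM of the 4 basal or squamous keratins. In both groups replicate 3 was the highest and replicate 2 the lowest of the KRT5 values.

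KRT6A (ENSG00000205420, chr12:52487176-52493257), a type II keratin of activated and squamous keratinocytes, had an FPKM of 36.6, 30.2 and 47.7 in siNC and of 38.2, 32.8 and 47.3 in siSHMT2. KRT17 (ENSG00000128422, chr17:41619442-41624842), a type I keratin of the same stress-induced group, had an FPKM of 32.7, 35.5 and 33.1 in siNC and of 50.1, 26.6 and 40.1 in siSHMT2. The KRT17 levels in siNC lay close together, and those in siSHMT2 spread to both sides of them.

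KRT13 (ENSG00000171401, chr17:41500981-41505705), the keratin of intermediate urothelial cells, had an FPKM of 11.3, 24.7 and 18.4 in siNC and of 19.4, 26.6 and 18.1 in siSHMT2. KRT20 (ENSG00000171431, chr17:40875889-40885242), the umbrella cell keratin, had 1 count in all 6 libraries together, in siNC replicate 3, where this came to an FPKM of 0.622. In the 5 libraries at 0 the 3 counts that a count of 0 still allows correspond to an FPKM of 2.03 to 3.12, depending on the depth of the library, and this covers counting error only. KRT20 was therefore at the limit of detection in both groups, and no fold change is given for it.

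**Figure D1:**
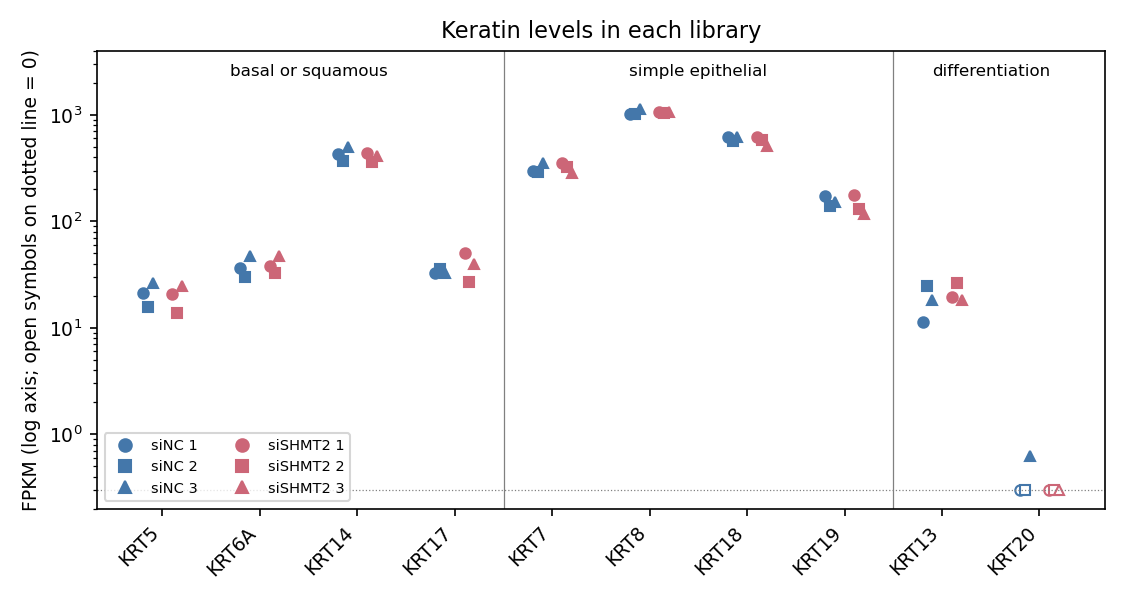
FPKM of the 10 keratins (log axis) in each library, with siNC in blue, siSHMT2 in red and a symbol for each replicate number; vertical lines part the 3 classes and open symbols stand for 0. KRT8 sits at 1014 to 1129.5, KRT14 at 358 to 502 and KRT5 at 13.6 to 26.1, and the groups overlap for every keratin.

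By mean FPKM over the 6 libraries the order was KRT8 (1059), KRT18 (586), KRT14 (419), KRT7 (317), KRT19 (148), KRT6A (38.8), KRT17 (36.3), KRT5 (20.4), KRT13 (19.8) and KRT20 (0.104). Neighbours in this order did not overlap over the libraries except KRT6A with KRT17 and KRT5 with KRT13. KRT6A was above KRT17 in 4 of 6 libraries and KRT5 above KRT13 in 4 of 6, and with the length of the canonical transcript in place of the listed length both of these pairs changed places. The listed length was longer than the canonical transcript for 4 members, most for KRT8 with 2862 against 1784 bases. With canonical lengths the mean of KRT8 was 1699 and that of KRT18 was 866, and the first 5 kept their order.

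Taken by class, the simple epithelial keratins held 79.6% ± 1.33 (SD, n = 3) of the summed FPKM of the 10 genes in siNC and 80.0% ± 1.72 (SD, n = 3) in siSHMT2. The basal or squamous class held 19.7% ± 1.50 in siNC against 19.1% ± 1.91 in siSHMT2 (SD, n = 3 each). The differentiation keratins, in effect KRT13, held 0.693% ± 0.281 (SD, n = 3) and 0.820% ± 0.201 (SD, n = 3). The difference in the basal share between the groups was smaller than the spread within either. With canonical transcript lengths the basal share was 14.8% in siNC and 14.4% in siSHMT2. The 4 type II members together had 1.15 ± 0.056 (SD, n = 3) times the FPKM of the 6 type I members in siNC and 1.23 ± 0.081 (SD, n = 3) times in siSHMT2.

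**Figure D2:**
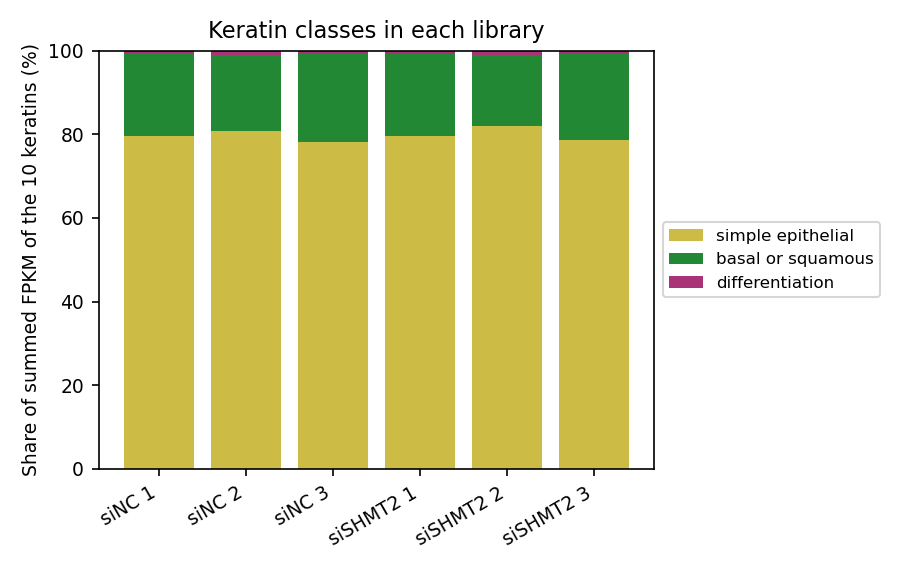
Share of the summed FPKM of the 10 keratins (%, axis from 0) held by each class, as a stacked bar for each library. The basal or squamous part is between 17.0% and 21.1% in every library, and the differentiation part is at most 1.05%.

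Whether silencing SHMT2 moved the keratins was asked with edgeR's quasi-likelihood test on the counts of all genes. Of the 10 members, 9 passed the filter on low counts and KRT20 did not. By edgeR 0 of these 9 passed the threshold of 0.05, adjusted or not, and by DESeq2 likewise 0. Among all 7207 tested genes the adjusted p passed it for 0, the unadjusted p for 3.84%, and for 2.68% the fold change was over 1.5 as well. The groups did not overlap in log2 CPM for 0 of the 9 members, against 9.20% of all tested genes. The median log2 fold change was 0.01 over the 9 members and 0.00 over all tested genes, and 5 members had a positive and 4 a negative value.

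The counts bounded the change of the abundant members closely and that of the rarer ones loosely. Changes are given as log2 of siSHMT2 over siNC with the standard error (SE), followed by the 95% interval of the fold. KRT8 (13773 counts in all libraries) had a log2 value of 0.01 (SE 0.093), with an interval of 0.885 to 1.15. The value for KRT18 (5544 counts) was -0.08 (SE 0.10), with an interval of 0.819 to 1.09. KRT7 had 0.04 (SE 0.12) on the log2 scale and an interval of 0.869 to 1.21. KRT19 had -0.15 (SE 0.15) and an interval of 0.728 to 1.11. With all 6 libraries the intervals of these 4 simple epithelial keratins lay within 1.5-fold in both directions. Without siSHMT2 replicate 1 the log2 value of KRT19 was -0.31 (SE 0.16), and a fall of 1.5-fold then lay within its interval.

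In the basal or squamous class KRT14 had a log2 value of -0.11 (SE 0.11), with an interval of 0.791 to 1.08. KRT6A had 0.04 (SE 0.20) and an interval of 0.780 to 1.36, and KRT5 had -0.11 (SE 0.27) and an interval of 0.638 to 1.35. Only the interval of KRT5 among these reached past 1.5-fold, on the side of a fall. KRT17, with 295 counts in all, had 0.18 (SE 0.23) and an interval of 0.823 to 1.56, and KRT13, with 163 counts, had 0.27 (SE 0.31) and an interval of 0.785 to 1.85. For KRT17 and KRT13 a rise of 1.5-fold could not be told from no change. All 9 had an edgeR quasi-likelihood adjusted p of 0.9987 or above, and the two-sided exact permutation test on FPKM gave p between 0.5 and 1 for each, where 3 libraries against 3 cannot go below 0.1.

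**Figure D3:**
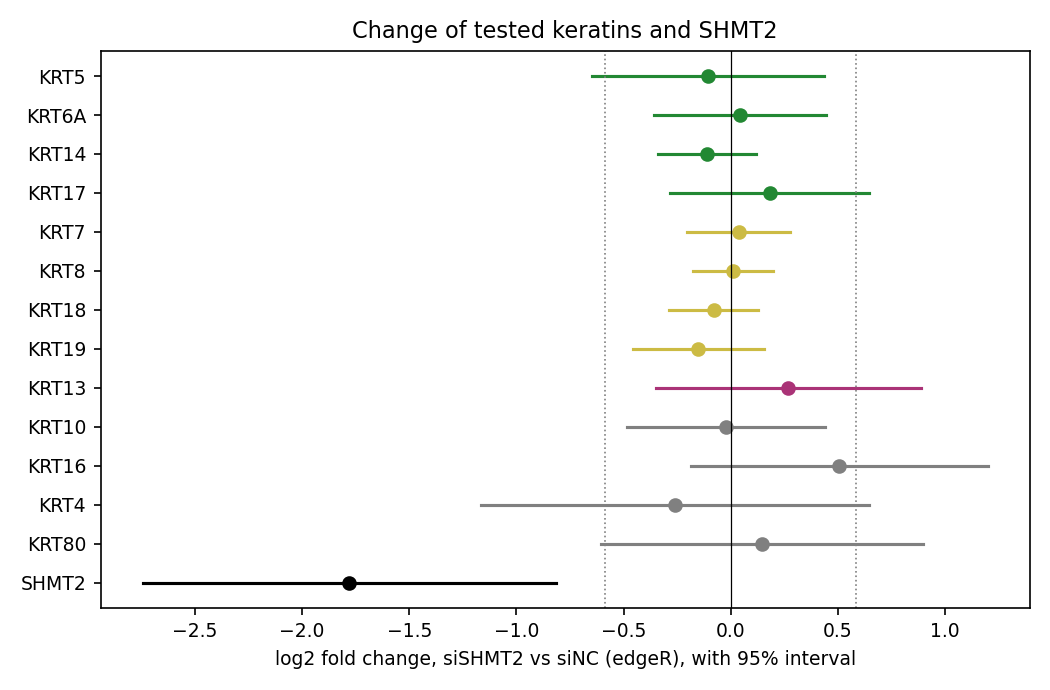
Log2 fold change of siSHMT2 relative to siNC from edgeR (points) with 95% intervals (lines) for the 9 tested members in the colours of their classes, 4 further tested keratins in grey and SHMT2 in black; dotted lines mark a 1.5-fold change. Every keratin interval includes 0, and that of SHMT2 lies below it.

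Leaving out siSHMT2 replicate 1 moved KRT17 from a log2 fold change of 0.18 to -0.01. In that fit the groups did not overlap for KRT18 and KRT19, beside 19.3% of all genes, and without siSHMT2 replicate 2 they did not overlap for KRT17, beside 18.7%. KRT13, the rarest member tested, came to 0.01 without siNC replicate 1 and to 0.57 without siNC replicate 2. No member passed an unadjusted p of 0.05 together with a 1.5-fold change in any of the 14 alternatives.

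The other keratins were far lower than KRT8 or KRT14. Of 45 further protein-coding keratin genes 20 had any count, 4 passed the filter, and their mean FPKM summed to 68.9. KRT10, the type I keratin of differentiating epidermis, led with an FPKM of 27.1 ± 0.461 in siNC against 26.8 ± 2.30 in siSHMT2 (SD, n = 3 each). KRT16, the type I partner of KRT6A, had 12.8 ± 1.77 (SD, n = 3) and 17.8 ± 6.39 (SD, n = 3). In KRT16 siSHMT2 replicate 3 alone was high, with 34 counts against 12 to 20 in the other libraries (log2 fold change 0.50, SE 0.34). KRT4, a type II partner of KRT13, had 7.16 ± 1.39 (SD, n = 3) and 5.95 ± 1.83 (SD, n = 3), and KRT80 had 5.09 ± 1.10 (SD, n = 3) and 5.87 ± 2.00 (SD, n = 3).

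KRT15, a basal type I keratin, did not reach the filter, with 12, 10 and 8 counts in siNC and 3, 6 and 4 in siSHMT2. Its FPKM was 3.44 ± 0.912 in siNC against 1.58 ± 0.331 in siSHMT2 (SD, n = 3 each), and every siSHMT2 library was below every siNC library. Without the filter the groups did not overlap in log2 CPM for 7% of 20836 genes. The exact permutation test gave KRT15 p = 0.1, the lowest that 3 libraries against 3 can give. It gave the same for KRT6B, with 1, 4 and 3 counts in siNC and 0, 1 and 0 in siSHMT2. In KRT6B the groups met at 1 count, in siNC replicate 1 and siSHMT2 replicate 2. Their FPKM of 0.5312 and 0.5305 differed through library size only. Another 13 keratins, from KRT81 at a mean FPKM of 1.63 down to KRT77 at 0.167, had between 3 and 19 counts in all libraries together. They were KRT81, KRT222, KRT24, KRT23, KRT1, KRT9, KRT6B, KRT86, KRT72, KRT79, KRT34, KRT3 and KRT77.

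Reads of some members can be shared with close copies. Over 1692 coding bases KRT6A is 97.5% identical to KRT6B and 97.9% to KRT6C, and 9.26% of the 150-base windows of its transcript, a read length of this study, also occur unchanged in another gene, mostly KRT6C. KRT6B had 9 counts in all and KRT6C had 0, against 411 for KRT6A; how reads with several places were counted is not given in the sources used here. For KRT14 0.605% of the windows occur in another gene, KRT16, and for the other 8 members 0%. KRT8 and KRT18 have 51 and 68 listed copies by symbol. In any library the copies of KRT8 held at most 0.718% of the counts of KRT8 with its copies. For KRT18 the same share was at most 2.47%.

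The strand opposite to a keratin also carried counts. KRT7-AS is an lncRNA gene at chr12:52245048-52247448 on the minus strand, within the body of KRT7, and 282 of its exonic bases lie against KRT7 exons. It had 370, 300 and 404 counts in siNC and 250, 385 and 351 in siSHMT2. KRT7 itself had 393, 309 and 513 counts in siNC and 306, 432 and 380 in siSHMT2, so that the lncRNA gene held 0.788 to 0.971 counts for each KRT7 count. Its log2 fold change was 0.01 (SE 0.12), beside 0.04 for KRT7.

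An lncRNA gene known only by its identifier, ENSG00000229732, lies at chr17:41500983-41502409 against KRT13, and all of its 476 exonic bases face KRT13 exons. It held 56, 59 and 91 counts in siNC and 29, 64 and 78 in siSHMT2, which is 1.53 to 3.29 times the counts of KRT13. ENSG00000289252 likewise faces KRT17 with all of its 307 exonic bases and had 0 counts in every library. KRT8 and KRT18 face each other over 525 exonic bases, or 7.6% of those of KRT8 and 17.1% of those of KRT18. The libraries were made with a strand-specific kit, the strand setting of the counting is not given in the sources used here, and the part that reads of the facing strand play in the level of these keratins was not tested.

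**Figure D4:**
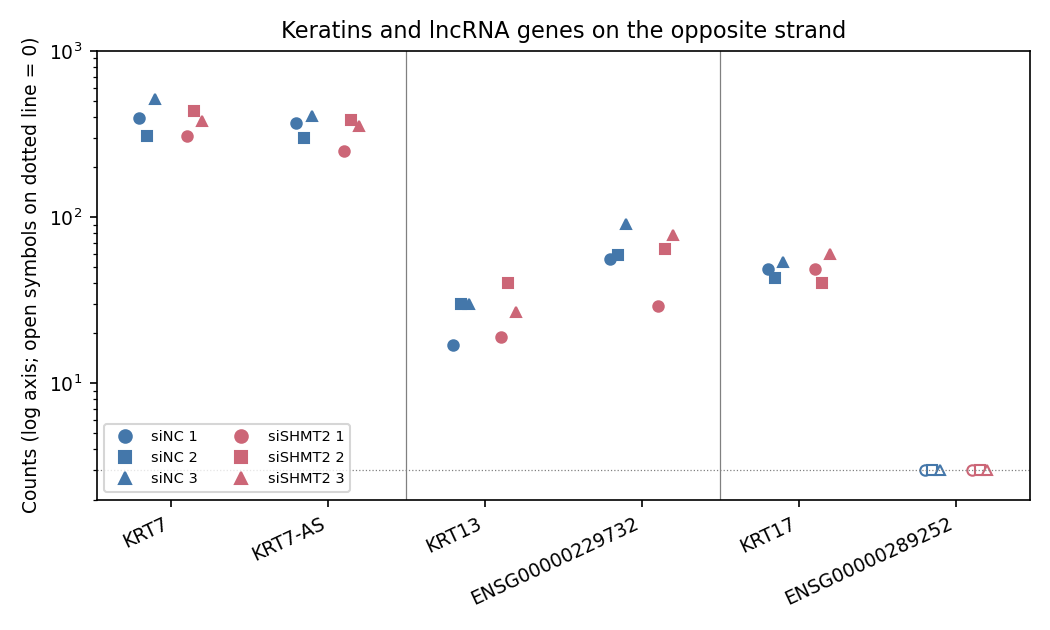
Counts (log axis) of KRT7, KRT13 and KRT17 and of the lncRNA gene that faces each on the opposite strand, for each library, with open symbols for 0. KRT7-AS lies close to KRT7, ENSG00000229732 lies above KRT13 in every library, and ENSG00000289252 is at 0.

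The label of the cells was set against markers other than keratins. All 7 epithelial genes had counts and were tested. Claudin 4 (CLDN4) had an FPKM of 18.7 ± 2.95 in siNC against 20.8 ± 1.35 in siSHMT2 (SD, n = 3 each), and E-cadherin (CDH1) had 18.3 ± 3.22 (SD, n = 3) and 19.2 ± 2.42 (SD, n = 3). ESRP1, an epithelial splicing factor, was the member of this list with an unadjusted p under 0.05, which 3.84% of all tested genes had. Its FPKM was 9.95 ± 2.72 in siNC against 6.10 ± 0.332 in siSHMT2 (SD, n = 3 each). Its change on the log2 scale was -0.68 (SE 0.32), at an edgeR p of 0.0408 unadjusted and 0.999 adjusted. Without siNC replicate 2, its highest library, the change was -0.43.

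Markers of other cell types were low in both groups. The summed FPKM of 10 fibroblast or muscle genes was 5.51 to 13.5 in siNC and 6.97 to 12.2 in siSHMT2, with vimentin (VIM), DCN, LUM, PDGFRB and DES at 0 counts in every library. ACTA2 led these with a mean FPKM of 6.27, followed by COL1A2 with 2.22 and COL3A1 with 0.553. Of 7 immune genes 2 had counts (CD68 and CD14), with a summed FPKM of at most 2.12, and PTPRC, CD3E, CD79A, MS4A1 and LYZ were at 0. Of 5 endothelial genes 2 had counts (CDH5 and PECAM1), with a summed FPKM of at most 1.07.

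Of the 10 non-keratin basal or squamous markers 8 passed the filter on low counts. SFN (stratifin), an epithelial 14-3-3 protein, had an FPKM of 364 ± 43.6 in siNC against 378 ± 34.8 in siSHMT2 (SD, n = 3 each). TRIM29, a basal epithelial protein, had 60.5 ± 8.68 (SD, n = 3) and 68.6 ± 3.13 (SD, n = 3), and integrin beta 1 (ITGB1) had 63.2 ± 14.4 (SD, n = 3) and 57.0 ± 11.8 (SD, n = 3). CD44, EGFR, SERPINB5, CDH3 and the basal transcription factor TP63 had means of 27.7, 18.7, 13.2, 6.81 and 5.53. The unadjusted p was under 0.05 for 0 of the 8 that could be tested, against 3.84% of all tested genes, and the median log2 fold change was 0.00. The other 2 were near the limit of detection and lower in siSHMT2, without a test across genes. S100A2, a calcium-binding protein of basal epithelium, had 7, 8 and 7 counts in siNC and 0, 2 and 7 in siSHMT2, and the groups overlapped. PI3, the protease inhibitor elafin, had 6, 0 and 2 counts in siNC and 0 in each siSHMT2 library, and the groups met at 0.

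Of the 12 luminal markers 9 had counts and 5 were tested. UPK1B, a uroplakin of the umbrella cell plaque, was the highest, at an FPKM of 99.97 ± 14.2 in siNC against 93.4 ± 13.6 in siSHMT2 (SD, n = 3 each). The other uroplakins were at or near the limit, with 0 counts for UPK1A and UPK3A, 1 for UPK2 and 12 for UPK3B in all libraries together, and the luminal factor FOXA1 was at 0. PPARG had 33 counts, with an FPKM of 1.73 on average, and FGFR3 had 12. GATA3, a luminal transcription factor, had an FPKM of 14.7, 15.2 and 18.9 in siNC and of 28.0, 20.2 and 23.9 in siSHMT2. Every siSHMT2 library was above every siNC library, and 9.20% of all tested genes had groups that did not overlap. The log2 change of 0.54 (SE 0.23) had an edgeR p of 0.0225 unadjusted and 0.999 adjusted, where 3.84% of all tested genes had an unadjusted p under 0.05. Without siSHMT2 replicate 1, the highest library for GATA3, the change was 0.44.

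Set against the classes used for bladder tumours, the libraries held the basal or squamous keratins KRT14, KRT6A, KRT17 and KRT5. These made up 17.0% to 21.1% of the summed FPKM of the 10 keratins, and the simple epithelial keratins 78.2% to 81.9%. Of the 10 non-keratin basal markers 8 were tested, among them TP63, CD44 and EGFR at mean FPKM of 5.53, 27.7 and 18.7. S100A2 and PI3 were near the limit of detection. KRT20, FOXA1 and most uroplakins had few or no counts. The luminal genes UPK1B, GATA3, CDH1, ERBB3 and ERBB2 were also held, at mean FPKM of 96.7, 20.1, 18.8, 5.56 and 4.69. CDH1 is also on the epithelial list, and the luminal genes PPARG and FGFR3 had only 33 and 12 counts in all libraries. For the keratins no difference between siNC and siSHMT2 was detected, within the intervals given, and no subtype classifier was run.

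**Figure D5:**
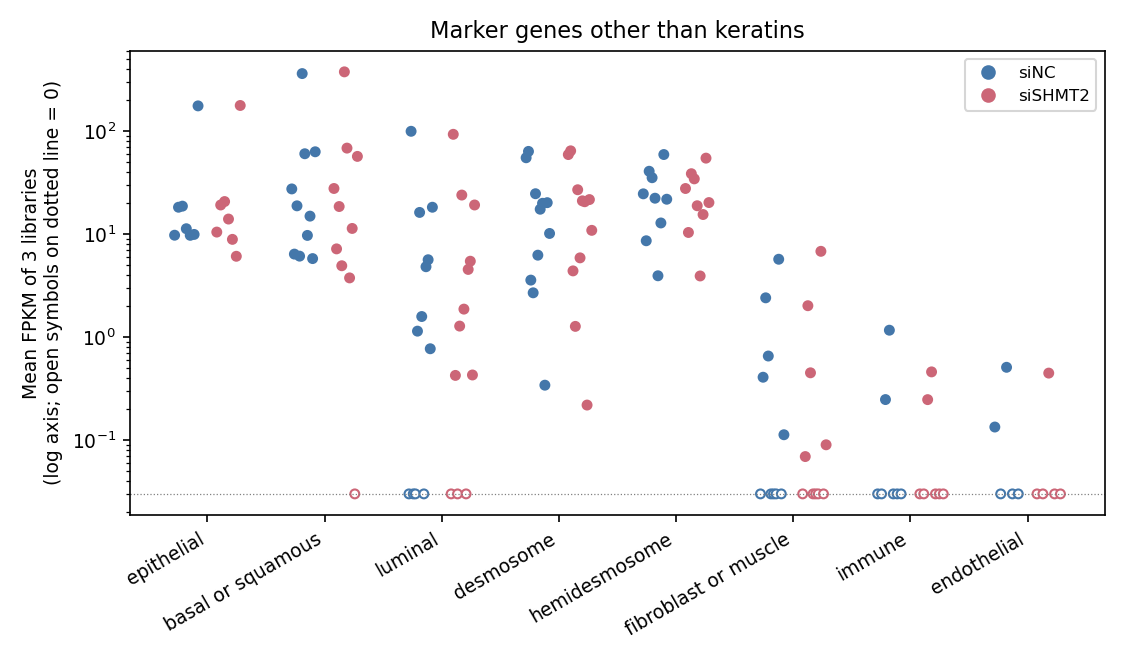
Mean FPKM of 3 libraries (log axis) for each gene of 8 marker and partner lists, siNC in blue and siSHMT2 in red, with open symbols for 0. Epithelial, basal, desmosome and hemidesmosome genes hold many genes above an FPKM of 10, and the fibroblast, immune and endothelial genes stay under it.

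Keratin filaments are anchored at desmosomes between cells and at hemidesmosomes to the basement membrane. Of 11 desmosome and cornified envelope linker genes 9 were tested and 0 had an unadjusted p under 0.05, against 3.84% of all tested genes. Their median log2 fold change was 0.10, with 7 positive and 2 negative. The groups did not overlap for 1 of the 9 (EVPL, higher in siSHMT2), against 9.20% of all tested genes. PKP2, left out by the filter, had 7, 8 and 13 counts in siNC and 3, 3 and 6 in siSHMT2. Plakoglobin (JUP) had an FPKM of 63.8 ± 9.72 in siNC against 64.6 ± 14.9 in siSHMT2 (SD, n = 3 each), desmoplakin (DSP), the linker between keratins and the plaque, had 55.3 ± 9.52 (SD, n = 3) and 59.4 ± 8.97 (SD, n = 3), and PKP3 had 24.7 ± 3.22 (SD, n = 3) and 27.0 ± 1.40 (SD, n = 3). All 9 hemidesmosome genes were tested, also with 0 past an unadjusted p of 0.05, and their median was -0.05. Here too the groups did not overlap for 1 gene (DST, higher in siSHMT2). The integrin chains ITGA6 and ITGB4 had 40.9 ± 10.2 (SD, n = 3) and 35.4 ± 3.66 (SD, n = 3) in siNC and 38.7 ± 12.4 (SD, n = 3) and 34.5 ± 7.71 (SD, n = 3) in siSHMT2.

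The members varied together only in part across the 6 libraries, which share their preparation and differ in depth. In log2 CPM Pearson's r was 0.88 between KRT5 and KRT6A, 0.83 between KRT5 and KRT14 and 0.85 between KRT18 and KRT19. It was 0.089 between the partners KRT8 and KRT18, and the cause of this low value was not tested. The genes with the pattern most like that of KRT14 were ELOB (r = 0.977), ENSG00000248015 (r = 0.970) and IGSF3 (r = 0.970), and those most like KRT8 were LPIN1 (r = 0.983), B9D1 (r = 0.980) and SCAF1 (r = 0.978). With 6 libraries and 7207 genes, 36 genes had r above 0.9 with KRT14 and 53 with KRT8, and these values describe the libraries and are not tests.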

How the data were processed

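The authors trimmed the reads with fastp 0.23.4 and aligned them with HISAT2 2.2.1 to GRCh38 (submitters' processing notes). The counter, its strand option and the release of its gene annotation are not given in the sources used here. The deposited counts are whole numbers per Ensembl gene and library, without normalization. The deposited FPKM values equal, to a relative difference of 2.3e-14, the count over the gene length and the library's summed counts, on the usual FPKM scale. The gene length is also listed, and 0 columns belong to other samples.

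Symbols, positions and overlaps came from GENCODE release 44 (GRCh38), which holds 62666 of the 63241 listed genes, and windows shared between genes were searched in its transcripts. Tests used R 4.3.3 and edgeR 4.0.16 (TMM, filterByExpr, quasi-likelihood, two-sided, no replicate block, Benjamini-Hochberg over 7207 genes). The alternatives were DESeq2 1.42.0, limma 3.58.1 on log2(FPKM + 1) or log2(FPKM + 0.1), RLE or no scaling, other filters (none, or at least 10 counts), a block for the replicate number, and leave-one-out fits over the libraries; canonical lengths were added after seeing the data. log2 CPM used a prior count of 2. The fit was tested on simulated data. Replicates differed by 1.79 to 2.51 times counting noise (chi-square per degree of freedom), so none was taken as the same library sequenced again. This cannot tell separate cultures from separate libraries of 1 culture. The depth was 533689 to 890574 counts per library, with a median of 25 counts per tested gene.

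The members, marker lists and rules were chosen with earlier results of these data known. Named were SHMT2, the members, other keratins at or above the mean FPKM of the lowest member, the 3 highest genes of each list and any with an unadjusted p under 0.05, the 3 genes most like KRT14 and KRT8, and genes facing a member, except that some items under this rule are not reported here; other genes of the marker lists and the gene CNBP were named after their values were seen. Figures were drawn with matplotlib 3.10.9.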

Additional observations from a re-analysis of the deposited data

How the results depend on the processing

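In all 14 alternatives 0 members passed an unadjusted p of 0.05 together with a 1.5-fold change. Groups that did not overlap were seen for 0 members with all 6 libraries and for 0 to 2 after leaving 1 out. Of all tested genes, 7% to 9.24% had such groups with all 6 libraries and 18.5% to 21.2% after leaving 1 out. Over all genes, the unadjusted p and the 1.5-fold change were met by 193 in the main edgeR fit of the re-analysis. The number was 80 with DESeq2, 607 without the filter on low counts and 114 where every library had to reach 10 counts. With 1 library left out it was 232 to 309. The cause was not tested for DESeq2, and the filters changed the number of genes tested. The count with an adjusted p under 0.05 was 0 throughout except without siSHMT2 replicate 3, where it was 1 (CNBP, no keratin; 0 to 1 over these fits). SHMT2 stayed lower in siSHMT2, between -2.58 and -1.31 with 1 library left out. The basal share was 15.2% in siNC and 14.8% in siSHMT2 from counts not divided by length, and 14.8% and 14.4% with canonical transcript lengths, since KRT8 and KRT18 have longer listed lengths.

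The sign of a log2 fold change near 0 turned only when 1 library was left out. KRT5 turned to 0.06 without siNC replicate 3 and 0.11 without siSHMT2 replicate 2 (range -0.32 to 0.11). KRT6A turned to -0.0018, -0.06 and -0.11 without siNC replicate 1, siNC replicate 2 and siSHMT2 replicate 3 (up to 0.22). KRT7 turned to -0.011 and -0.024 without siNC replicate 1 and siSHMT2 replicate 1 (up to 0.13), KRT8 to -0.027 without siNC replicate 1 (up to 0.038) and KRT17 to -0.0072 without siSHMT2 replicate 1 (up to 0.39).

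With the replicate number as a block 187 genes passed the unadjusted rule, 0 of them members. The labels name no shared culture or day for same-numbered libraries, so the numbers were not taken as pairs. The deviations of same-numbered libraries had correlations of -0.015, 0.048 and -0.012, which at this depth cannot exclude a shared origin. The filter on low counts left the member KRT20 and the further keratin KRT15 without a test in the main fit. Among the tested members KRT13 (SE 0.31), KRT5 (SE 0.27) and KRT17 (SE 0.23) had the widest intervals.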
